A study of Mus musculus with 12 samples.

Results

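The 10 genes described here belong to the bone morphogenetic protein (BMP) pathway: the ligands *Bmp2*, *Bmp3*, *Bmp4* and *Bmp6*, the receptor *Bmpr1a*, the target genes *Id1*, *Id3* and *Smad6*, and the antagonists *Nog* and *Grem1*. They were chosen by name, from the 23284 gene names of the sorted osteoblast set and the 24346 of the MC3T3-E1 set, and all were found in both. RNA-Seq was performed on 12 libraries in 4 groups of 3. Osteoblasts were sorted as 7AAD- Lin- CD45- ECFP+ cells from female Col2.3-ECFP mice, 12 weeks old at the start. The mice had received vehicle or PTH(1-34) at 40 µg/kg/day on 5 days per week for 3 weeks, and cells were sorted 24 h after the last injection. ECFP is driven in these mice by a fragment of the type I collagen promoter, so the sort takes cells in which that fragment is active. The other 6 libraries came from MC3T3-E1 cells, a clonal preosteoblast line from mouse calvaria. These cells were transduced with a retrovirus carrying *Slpi*, the gene of secretory leukocyte protease inhibitor, or with the empty vector (mock), and both were selected with puromycin. The labels do not tie the MC3T3-E1 replicates to separate infections, so *p* values there describe the spread between libraries, which may be technical. The comparison in mice asks what intermittent PTH changes in osteoblasts, and the comparison in MC3T3-E1 cells asks what excess *Slpi* changes in such cells.

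BMPs are secreted growth factors, first recognised by their ability to induce ectopic bone. A ligand dimer brings together type I and type II serine/threonine kinase receptors, the type I receptor phosphorylates SMAD1, SMAD5 and SMAD9, and these enter the nucleus with SMAD4. Genes of the *Id* family and *Smad6* are direct targets that report pathway activity, and SMAD6 feeds back to inhibit it. Noggin and gremlin 1, encoded by *Nog* and *Grem1*, bind ligands outside the cell and keep them from their receptors.

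Expression is given as FPKM, a count of sequenced fragments scaled to transcript length and library size, which can be compared between genes within a library. The depth in reads is not known from FPKM. The relative depth, read from the steps between low values, ranged from 0.787 to 1.40 over the sorted libraries and from 0.870 to 1 over those of MC3T3-E1 cells. *Slpi* was at 377 to 396 in mock and 1848 to 2105 in *Slpi*-overexpressing libraries, in accordance with the labels. The osteoblast markers *Bglap*, *Ibsp*, *Alpl*, *Sp7*, *Spp1*, *Dmp1* and *Runx2* were at 29.7 FPKM or more in each sorted library, whereas *Col1a1* and *Col1a2* were listed at 0 in vehicle replicate 3 and in all 3 PTH libraries. In addition, 56 genes were listed at 0 in 1 sorted library and above 100 in another. A listed 0 can therefore be a failed estimate. MC3T3-E1 libraries had *Ibsp*, *Alpl*, *Sp7*, *Spp1*, *Runx2* and *Col1a2* at 29.3 FPKM or more, but *Bglap* and *Dmp1* at 2.85 or less.

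RefSeq promoter windows (build GRCm38.p6, which is mm10) matched 6 of the 10 genes. Each window has 300 bases and spans the annotated start site, most of it upstream. The 4 printed next belong to genes that fell together in *Slpi*-overexpressing cells, described further on, and are written 5′ to 3′ on the strand of the gene. Capitals mark matches on either strand to GGCGCC (a GC-rich site of BMP SMADs), TGACGTCA (the cAMP response element), its shorter core TGACG, or GTCTAGAC (a palindromic SMAD element). A match to TGACGTCA would also contain TGACG. They lie at chr14:46390620-46390919 (minus strand) for *Bmp4*, chr4:136143572-136143871 (plus strand) for *Id3*, chr9:64022010-64022309 (minus strand) for *Smad6* and chr2:113758599-113758898 (minus strand) for *Grem1*.
Bmp4: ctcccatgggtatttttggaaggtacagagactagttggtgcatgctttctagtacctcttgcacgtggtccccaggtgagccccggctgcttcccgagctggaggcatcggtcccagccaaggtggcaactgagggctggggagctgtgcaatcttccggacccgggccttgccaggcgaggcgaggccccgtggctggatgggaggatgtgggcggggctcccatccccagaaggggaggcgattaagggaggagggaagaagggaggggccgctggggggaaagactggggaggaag
Id3: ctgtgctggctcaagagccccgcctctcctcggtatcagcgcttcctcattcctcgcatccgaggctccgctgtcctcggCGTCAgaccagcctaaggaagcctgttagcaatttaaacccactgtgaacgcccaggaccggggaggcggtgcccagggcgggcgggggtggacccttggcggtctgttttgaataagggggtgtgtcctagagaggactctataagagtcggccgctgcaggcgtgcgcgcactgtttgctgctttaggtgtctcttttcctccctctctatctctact
Smad6: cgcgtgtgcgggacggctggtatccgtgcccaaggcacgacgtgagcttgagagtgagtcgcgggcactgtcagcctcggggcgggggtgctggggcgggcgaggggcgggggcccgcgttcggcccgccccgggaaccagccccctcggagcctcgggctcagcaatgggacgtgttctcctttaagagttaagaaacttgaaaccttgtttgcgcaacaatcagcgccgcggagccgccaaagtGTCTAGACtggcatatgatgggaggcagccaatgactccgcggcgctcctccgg
Grem1: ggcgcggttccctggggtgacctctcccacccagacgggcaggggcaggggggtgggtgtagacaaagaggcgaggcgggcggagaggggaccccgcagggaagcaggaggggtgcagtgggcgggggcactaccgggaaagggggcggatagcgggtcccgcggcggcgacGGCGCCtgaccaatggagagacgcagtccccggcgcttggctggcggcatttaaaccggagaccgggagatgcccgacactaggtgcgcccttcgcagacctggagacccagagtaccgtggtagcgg
The *Smad6* window held GTCTAGAC starting at position -4 from the start site, so that the match spans it, and 0.213% of 32851 RefSeq promoter windows held this motif. The *Id3* window held TGACG, on the opposite strand, at -170, as did 20.8% of all windows. The *Grem1* window held GGCGCC at -78 and the *Bmpr1a* window held it at -198, as did 11.9% of all windows. The *Bmp4* and *Bmp6* windows held none of these motifs, and TGACGTCA, held by 1.79% of all windows, was in none of the 6. A match describes letters and does not show that a factor binds.

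The levels of the 10 genes differed widely within a library. *Id3*, which encodes an inhibitor of basic helix-loop-helix transcription factors, had the highest mean of 65 BMP pathway genes in each of the 4 groups. In vehicle libraries it was followed, among the 10, by *Bmp2*, then *Bmp3* (30.2 to 34.0) and *Id1* (23.6 to 33.6), whose ranges overlapped. *Bmpr1a* came next, then *Bmp4* (6.34 to 10.9) and *Smad6* (4.30 to 7.62), which overlapped, and last *Grem1*, *Nog* and *Bmp6*, whose ranges overlapped between 0.781 and 2.37 FPKM. The order of the means was the same with PTH. In mock cells *Id3* was followed by *Bmp4* (28.3 to 29.5), *Bmpr1a* (19.2 to 21.0), *Grem1* (15.8 to 18.5), *Id1* (12.4 to 16.8) and *Smad6* (6.80 to 7.95), of which only *Grem1* and *Id1* overlapped. In *Slpi*-overexpressing cells the order was the same, and the ranges of *Bmp4* (18.8 to 21.7) and *Bmpr1a* (18.0 to 19.8) overlapped.

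**Figure D1:**
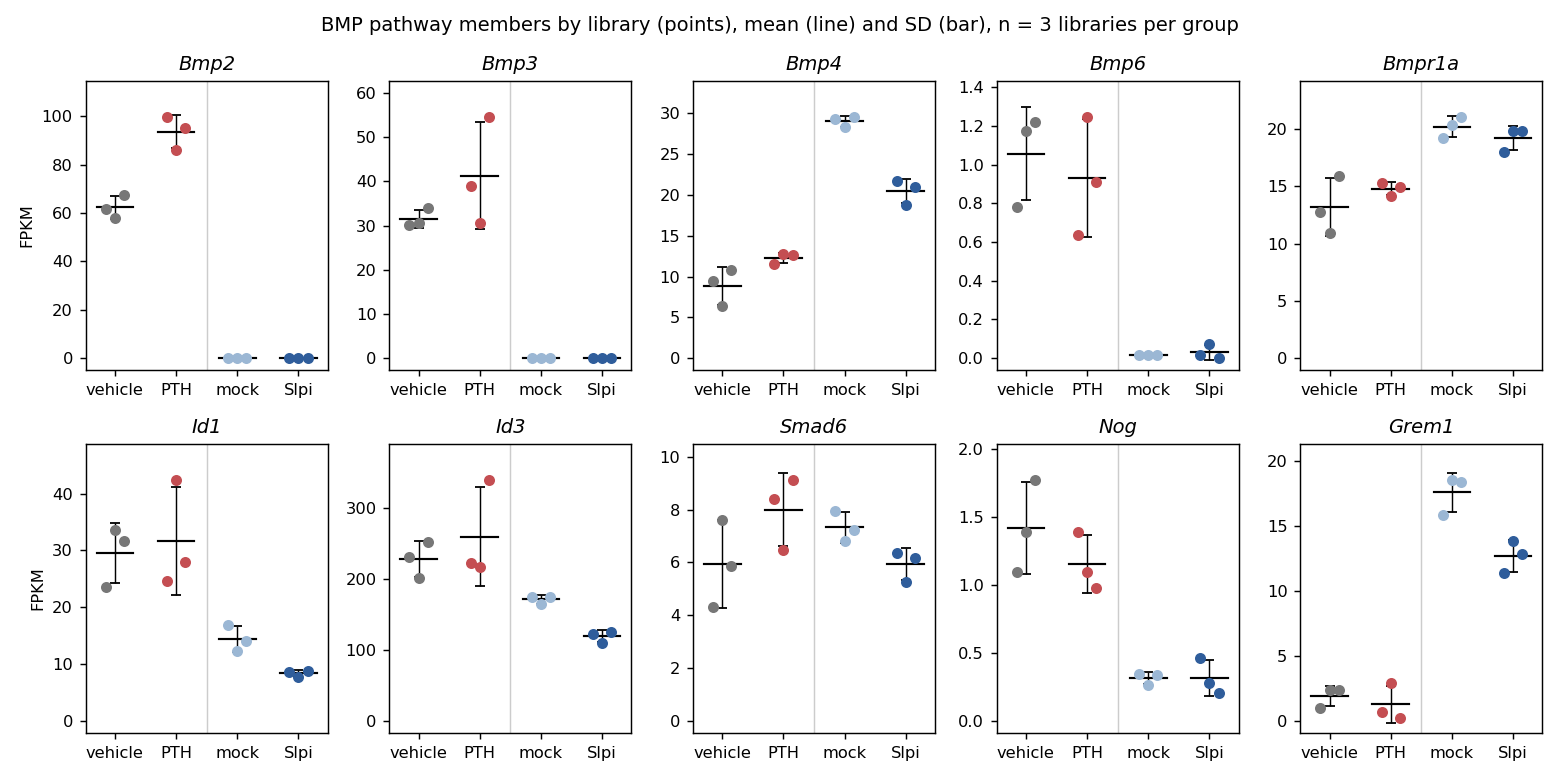
FPKM of the 10 genes (y axis, own scale in each panel) in the libraries of the 4 groups (x axis), with the mean and SD of 3 libraries. *Bmp2* and *Bmp4* are higher in all 3 PTH libraries than in any vehicle library, as were 19.5% of all tested genes. *Bmp4*, *Id1*, *Id3*, *Smad6* and *Grem1* are lower in all 3 *Slpi* libraries than in any mock library, as were 32.2% of all tested genes. *Bmp2* and *Bmp3* are listed at 0 in MC3T3-E1 cells. The sorted and MC3T3-E1 libraries were normalized separately.

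The listed ligand levels differed between the cells. Among the 4 ligands, *Bmp2*, a strongly osteogenic ligand, was the highest in sorted osteoblasts. It made up 59.5% to 60.4% of their summed FPKM in vehicle and 58.3% to 66.1% in PTH libraries. *Bmp3*, which encodes a ligand that restrains bone formation by other BMPs, made up 29.6% to 31.8% with vehicle and 23.4% to 33.4% with PTH. *Bmp4*, closely related to *Bmp2*, made up 6.62% to 9.73% over the 6 libraries, and *Bmp6* at most 1.22%. The ligands *Bmp8a* and *Bmp7*, outside the 4, had means of 13.8 and 11.7 FPKM with vehicle, above the 8.89 of *Bmp4*. In MC3T3-E1 cells *Bmp4* made up at least 99.6% of the sum of the 4 ligands in every library. There *Bmp2* and *Bmp3* were listed at 0, which cannot be told from failed estimates, so this share rests on those zeros. The sum of the 4 ligands was 95.8 to 114 FPKM with vehicle, 131 to 163 with PTH, 28.3 to 29.6 in mock and 18.9 to 21.7 in *Slpi*-overexpressing cells. Neither pair of groups overlapped. Of all single genes tested, 19.5% were higher with PTH and 32.2% lower with *Slpi* without overlap.

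**Figure D2:**
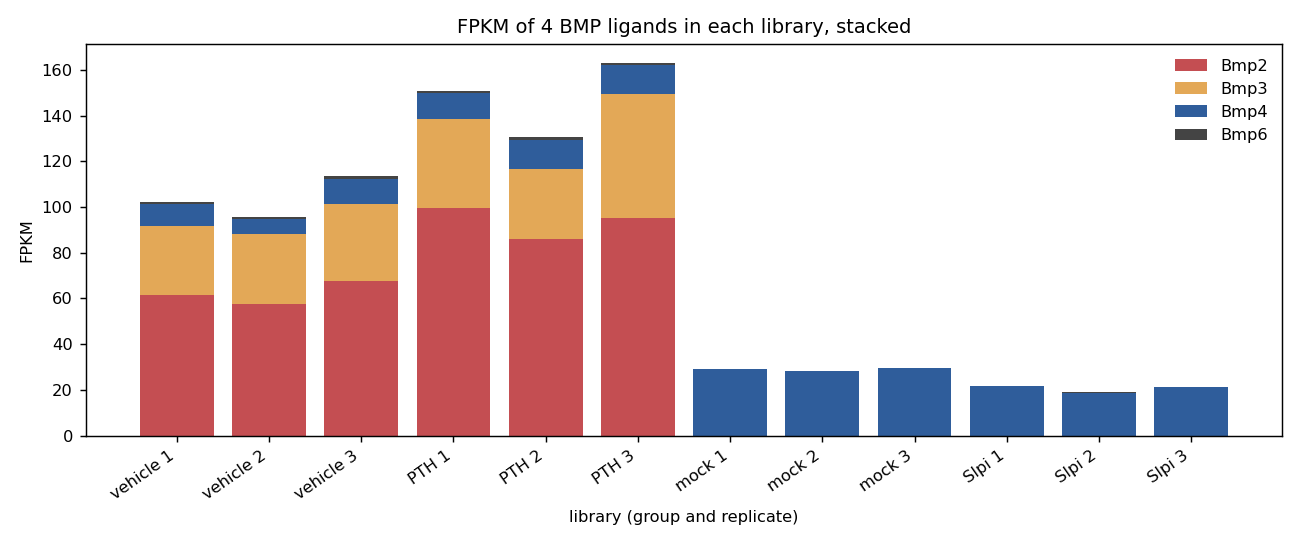
FPKM of 4 BMP ligands (y axis, stacked) in each of the 12 libraries (x axis). *Bmp2* is the largest share in all 6 sorted libraries and *Bmp4* makes up nearly the whole bar in MC3T3-E1 cells. In the latter *Bmp2* and *Bmp3* are listed at 0, which cannot be told from failed estimates. The sorted and MC3T3-E1 libraries were normalized separately, so bar heights are comparable within each experiment.

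*Bmp2* was higher in osteoblasts of PTH-treated mice. *Bmp2* (chr2:133552159-133562885, mm10, plus strand) was at 61.6, 57.8 and 67.6 FPKM in the vehicle libraries (62.3 ± 4.93, SD, n = 3) and at 99.7, 86.1 and 95.2 with PTH (93.6 ± 6.91). All 3 PTH libraries lay above all vehicle libraries, and the ratio of the means was 1.503. The log2 fold change of FPKM + 1 was 0.58 (SE 0.104, 95% interval 0.34 to 0.82, limma adjusted *p* = 0.0203). The adjusted *p* was 0.0927 without vehicle replicate 1, 0.0876 without vehicle replicate 2 and 0.0634 without PTH replicate 1, and the log2 fold change stayed between 0.53 and 0.64. *Bmp2* was the 1 gene of the 10 that passed the test, and none was lower. Over the 13004 genes tested, 6.38% were higher and 8.85% lower at an adjusted *p* under 0.05. At an unadjusted *p* under 0.05 there were 2 of the 10, *Bmp2* and *Bmp4*, both higher, against 4353 of the 13004 genes in either direction.

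The other 3 ligands did not pass the adjusted test. *Bmp4* (chr14:46383520-46390669, minus strand) was at 9.46, 6.34 and 10.9 FPKM with vehicle and at 11.6, 12.7 and 12.6 with PTH. Its PTH libraries all lay above the vehicle libraries, and the log2 fold change was 0.46 (95% interval 0.02 to 0.89, limma adjusted *p* = 0.136). *Bmp2* and *Bmp4* were the 2 of 10 genes whose groups did not overlap and were higher, which 19.5% of all tested genes also showed, and none was lower without overlap, against 20.9%. *Bmp3* (chr5:98854415-98884396) was at 30.2, 30.5 and 34.0 FPKM with vehicle and at 38.9, 30.6 and 54.5 with PTH. The groups overlapped, and PTH replicate 3 was the highest (log2 fold change 0.34, 95% interval -0.13 to 0.81, limma adjusted *p* = 0.273). *Bmp6* (chr13:38345107-38500302), whose product is known from liver as a regulator of iron, was at 0.781, 1.17 and 1.22 FPKM with vehicle and at 0.635, 1.25 and 0.912 with PTH. Its groups overlapped (log2 fold change -0.10, 95% interval -0.58 to 0.39).

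Neither the receptor nor the targets differed detectably. *Bmpr1a* (chr14:34410734-34503341, minus strand), a type I receptor of BMP2 and BMP4, was at 12.7, 10.9 and 15.9 FPKM with vehicle and 15.3, 14.1 and 14.9 with PTH. The PTH values lay within the vehicle range (log2 fold change 0.17, 95% interval -0.17 to 0.51). *Id1* (chr2:152736251-152737410), a relative of *Id3*, was at 23.6, 33.6 and 31.6 FPKM with vehicle and 24.7, 42.4 and 27.9 with PTH (log2 fold change 0.07, 95% interval -0.45 to 0.60). *Id3* (chr4:136143497-136145755) was at 232, 201 and 252 FPKM with vehicle and 223, 217 and 340 with PTH (log2 fold change 0.16, 95% interval -0.28 to 0.61). For both, 1 PTH library stood above all others, replicate 2 for *Id1* and replicate 3 for *Id3*, while the other 2 lay within the vehicle range. *Smad6* (chr9:63953076-64022059, minus strand) was at 4.30, 7.62 and 5.88 FPKM with vehicle and 8.40, 6.46 and 9.12 with PTH, with overlap (log2 fold change 0.39, 95% interval -0.10 to 0.88). The limma adjusted *p* was 0.443 for *Bmpr1a*, 0.839 for *Id1*, 0.575 for *Id3* and 0.235 for *Smad6*.

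Both antagonists were low in sorted osteoblasts. *Nog* (chr11:89300638-89302332, minus strand) was at 1.10, 1.39 and 1.77 FPKM with vehicle and 1.39, 1.09 and 0.976 with PTH (log2 fold change -0.16, 95% interval -0.61 to 0.28). *Grem1* (chr2:113746164-113758646, minus strand) was at 0.984, 2.36 and 2.37 FPKM with vehicle and 0.684, 2.88 and 0.234 with PTH. Its PTH libraries included both the highest and the lowest of the 6 values, and the 95% interval of the log2 fold change ran from -1.54 to 0.55. The limma adjusted *p* was 0.564 for *Nog* and 0.462 for *Grem1*.

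**Figure D3:**
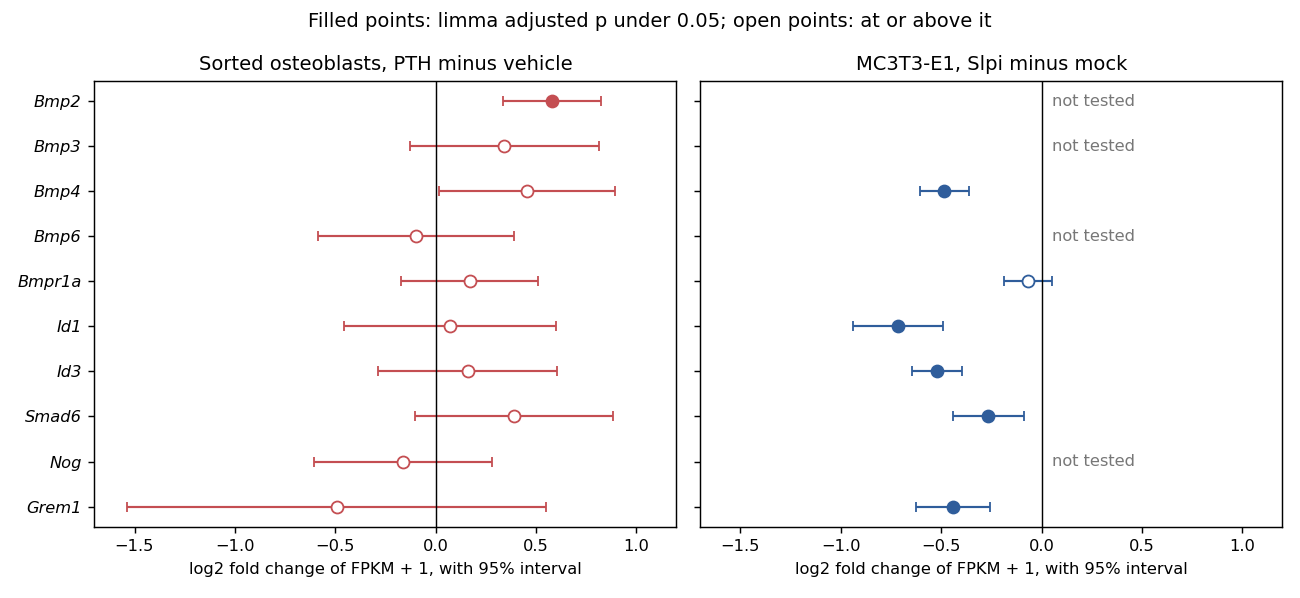
Log2 fold change of FPKM + 1 (x axis) with its 95% interval for the 10 genes (y axis), PTH minus vehicle on the left and *Slpi* minus mock on the right, with 3 libraries per group. Filled points passed the limma adjusted *p* of 0.05: *Bmp2* on the left, and *Bmp4*, *Id1*, *Id3*, *Smad6* and *Grem1* on the right.

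A further 55 genes of the pathway were examined, and 39 of them were high enough to be tested in sorted osteoblasts. Of these, 3 were higher with PTH and none was lower by limma, where 6.38% of all tested genes were higher and 8.85% lower. An unadjusted *p* under 0.05 was found for 10 of the 39, all with estimates above 0, and for 4353 of all 13004 genes in either direction. The share of the 39 that was higher at an adjusted *p* was near that over all genes. At an unadjusted *p*, the share in either direction was below that over all genes. The count over all genes was not split by direction, and 50.6% of all tested genes had estimates above 0, so shares of higher genes were not compared there. *Gdf10*, the gene of a ligand close to *Bmp3*, was at 1.77, 2.24 and 1.73 FPKM with vehicle and 5.35, 4.50 and 4.36 with PTH (log2 fold change 0.98, SE 0.148, limma adjusted *p* = 0.0159). *Bmp5*, a ligand of the *Bmp6* subgroup, was at 3.44, 4.28 and 4.58 FPKM with vehicle and 8.98, 6.61 and 6.44 with PTH (log2 fold change 0.70, SE 0.166, limma adjusted *p* = 0.0365). *Chrd*, which encodes the ligand-binding antagonist chordin, was at 4.08, 3.50 and 3.92 FPKM with vehicle and 5.74, 6.47 and 6.66 with PTH (log2 fold change 0.59, SE 0.124, limma adjusted *p* = 0.0283). In each of the 3 the groups did not overlap. In all, 7 of the 39 were higher without overlap and 0 lower, where 19.5% of all tested genes were higher and 20.9% lower. *Gdf10* did not pass without vehicle replicate 1 or without vehicle replicate 2 (adjusted *p* up to 0.0768). *Bmp5* passed only where PTH replicate 3 was the library left out (up to 0.127 for the others), and *Chrd* passed in none of the fits that left out 1 library (up to 0.106). The median log2 fold change was 0.20 over the 39 genes and 0.16 over the 10, against 0.0066 over all genes tested. Of 12 tested targets, the 3 described above included, none passed the adjusted test. An unadjusted *p* under 0.05 was found for 2 of them, beside the 4353 of all 13004 genes. Their median log2 fold change was 0.37, against the same 0.0066 over all genes. *Hamp*, 1 of the 12, was tested only through PTH replicate 3 (1.80 FPKM, listed at 0 in the others).

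Markers of other cells moved with PTH in these libraries. In bulk RNA, fewer cells of a type and less RNA per cell cannot be told apart. The summed FPKM of 5 megakaryocyte markers was 3.51 to 7.13 with vehicle and 185, 148 and 6.47 with PTH, with 1 of the 5 higher by the test. That of 8 neutrophil markers was 352 to 442 with vehicle and 653 to 2225 with PTH, with 5 higher. That of 7 T and NK cell markers was 107 to 180 with vehicle and 1.22 to 21.9 with PTH, with 5 lower. Of 4 mast cell markers, *Cpa3* was lower and the other 3 were listed at 0 in all 6 libraries. The summed FPKM of 5 osteoclast markers, mostly *Ctsk*, was 159 to 167 with vehicle and 262 to 295 with PTH. Of 3 tested, *Ctsk* was higher (limma adjusted *p* = 0.0164). *Acp5* and *Mmp9* did not pass, with log2 fold changes of 1.09 and -0.56. Of 5 chondrocyte markers, *Acan* and *Sox9* were higher (limma adjusted *p* = 0.0320 and 0.0143), while the sum, mostly *Col2a1*, was 589 to 705 with vehicle and 603 to 732 with PTH. Heart muscle markers summed to 1299 in PTH replicate 2 and to at most 9.74 in the others. The labels spell the source name of PTH replicate 3 differently from those of replicates 1 and 2. In that library, the highest of the 6 for *Bmp3*, the megakaryocyte sum was 6.47 while the neutrophil sum was 653, still above the vehicle range. Of 8 osteoblast markers, *Alpl* and *Spp1* were higher with PTH. The part of these cells in the values of the BMP genes was not tested.

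In MC3T3-E1 cells, the targets *Id1*, *Id3* and *Smad6*, the ligand *Bmp4* and the antagonist *Grem1* were lower with *Slpi* overexpression. Of the 10 genes, 6 were high enough to be tested, and 5 of these fell, with none higher by limma at an adjusted or unadjusted *p* under 0.05. Many genes changed in this comparison: of 11466 tested, 28.9% were lower and 31.9% higher at the same threshold. The groups did not overlap for the same 5 genes, all lower, while 32.2% of all genes were lower and 34.9% higher without overlap. The median log2 fold change of the 6 was -0.46, against 0.0041 over all genes.

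*Bmp4* was at 29.3, 28.3 and 29.5 FPKM in mock libraries (29.0 ± 0.662, SD, n = 3) and at 21.7, 18.8 and 21.0 with *Slpi* (20.5 ± 1.51). Each *Slpi* library lay below each mock library (log2 fold change -0.48, SE 0.0533, limma adjusted *p* = 0.000113). The gene overlaps the tail of *Gm15217* on the opposite strand, and whether counting used the strand is not given in the sources used here. *Bmp2* and *Bmp3* were listed at 0 in all 6 libraries, and *Bmp6* reached at most 0.073 FPKM. These zeros cannot be told from failed estimates, since 18 genes of this set were listed at 0 in 1 library and above 100 FPKM in another. In this set 4 of 81 ribosomal protein genes were listed at 0 in any library, *Rpl10l*, *Rpl39l*, *Rpl3l* and *Rps4l*, each a paralog of another ribosomal protein gene. *Bmpr1a* was at 19.2, 20.3 and 21.0 FPKM in mock and at 18.0, 19.8 and 19.8 with *Slpi*. Its groups overlapped, and the interval of the log2 fold change was -0.19 to 0.05 (limma adjusted *p* = 0.273).

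All 3 target genes fell. *Id1* was at 16.8, 12.4 and 14.1 FPKM in mock (14.4 ± 2.25, SD, n = 3) and at 8.61, 7.69 and 8.73 with *Slpi* (8.34 ± 0.569), the largest change of the 6 tested genes (log2 fold change -0.72, SE 0.0982, limma adjusted *p* = 0.000354). *Id3* was at 176, 165 and 174 FPKM in mock (171 ± 5.91) and at 123, 109 and 126 with *Slpi* (119 ± 8.84), again with a gap between the groups (log2 fold change -0.52, SE 0.0546, limma adjusted *p* = 8.84e-05). *Smad6* was at 7.95, 6.80 and 7.24 FPKM in mock and at 6.37, 5.26 and 6.16 with *Slpi*. Here the gap between the groups was narrow (log2 fold change -0.27, SE 0.0770, limma adjusted *p* = 0.0163), and without mock replicate 1 the adjusted *p* was 0.0576. The level of *Id1* was 7.51% to 9.59% of that of *Id3* in mock and 6.93% to 7.03% with *Slpi*. These ranges did not overlap, although an exact permutation test of 3 against 3 libraries cannot give a two-sided *p* below 0.1.

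*Grem1*, at 15.8, 18.5 and 18.4 FPKM in mock, was at 11.4, 13.8 and 12.9 with *Slpi*. All *Slpi* values were below the mock values (log2 fold change -0.44, SE 0.0795, limma adjusted *p* = 0.00155). The level of *Grem1* relative to *Bmp4*, 54.1% to 65.5% in mock and 52.4% to 73.5% with *Slpi*, overlapped between the groups. *Nog* was at 0.345, 0.266 and 0.335 FPKM in mock and at 0.459, 0.280 and 0.207 with *Slpi*, below the level set for testing.

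Of the further 55 pathway genes, 33 were tested in MC3T3-E1 cells, of which 14 were lower and 8 higher with *Slpi* (28.9% and 31.9% of all tested genes), with a median log2 fold change of -0.10. They did not all move one way. Counting the 10 genes too, 8 of 11 tested targets were lower and 2 higher, with a median of -0.52, where 28.9% of all tested genes were lower and 31.9% higher. *Id4*, another *Id* gene, fell from 91.2 to 108 FPKM in mock to 54.9 to 59.3 with *Slpi* (log2 fold change -0.74). *Id2* fell from 20.9 to 22.6 to 11.97 to 14.8 (-0.63), so that each of the 4 *Id* genes was lower. The homeobox gene *Msx2* fell from 4.57 to 5.87 FPKM to 2.15 to 2.76 (-0.83), the homeobox gene *Dlx2* from 7.40 to 8.26 to 5.04 to 5.85 (-0.50), and *Atoh8*, a helix-loop-helix factor, from 21.7 to 23.7 to 13.3 to 14.8 (-0.63). *Dlx3*, a homeobox gene of osteoblast differentiation, moved the other way, from 0.497 to 0.543 FPKM in mock to 6.18 to 7.64 with *Slpi* (log2 fold change 2.38, SE 0.0787). Its mock values were below the FPKM of 1 set for testing, so *Dlx3* could enter the test only by being higher with *Slpi*. *Msx1* was the other target that was higher (0.37). The limma adjusted *p* of these genes lay between 3.95e-07 for *Dlx3* and 0.00584 for *Msx1*.

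Most tested antagonists were lower, whereas most signal transducers were higher. Of 12 tested antagonists 7 were lower and 1 higher, beside the same shares of all genes. *Nbl1*, whose product binds BMPs, fell from 32.0 to 32.4 FPKM in mock to 20.8 to 24.4 with *Slpi* (log2 fold change -0.49), and *Fst*, the gene of follistatin, which binds activins and some BMPs, fell from 61.0 to 64.3 to 48.4 to 51.7 (-0.30). *Bmper*, which encodes a secreted BMP-binding modulator, was the 1 antagonist that was higher, from 0.0960 to 0.255 FPKM to 1.55 to 1.80 (1.16). Its mock values were also below the FPKM of 1 set for testing, so it was tested only through its *Slpi* values. Among intracellular or decoy inhibitors, *Tob1*, which represses SMAD activity, fell from 23.6 to 25.9 FPKM to 18.2 to 19.8 (-0.38), and *Bambi*, a pseudoreceptor, rose from 1.35 to 1.53 to 2.75 to 3.07 (0.69). Of the 4 SMADs that carry the signal, 3 were higher: *Smad1* rose from 5.997 to 7.16 FPKM to 9.07 to 9.19 (0.41), and *Smad5* and the common partner *Smad4* had log2 fold changes of 0.19 and 0.14. *Smad4* kept its call only in the fits without mock replicate 2 or without *Slpi* replicate 2 when 1 library was left out (adjusted *p* up to 0.0867 in the others). Of 6 tested receptors and coreceptors, *Acvr1* was higher (0.17) and *Rgma* lower (-0.41). The limma adjusted *p* was 0.00240 for *Smad5*, 0.0275 for *Smad4*, 0.00683 for *Acvr1* and 0.000963 for *Rgma*, and at most 0.000542 for the other genes named in this paragraph.

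**Figure D4:**
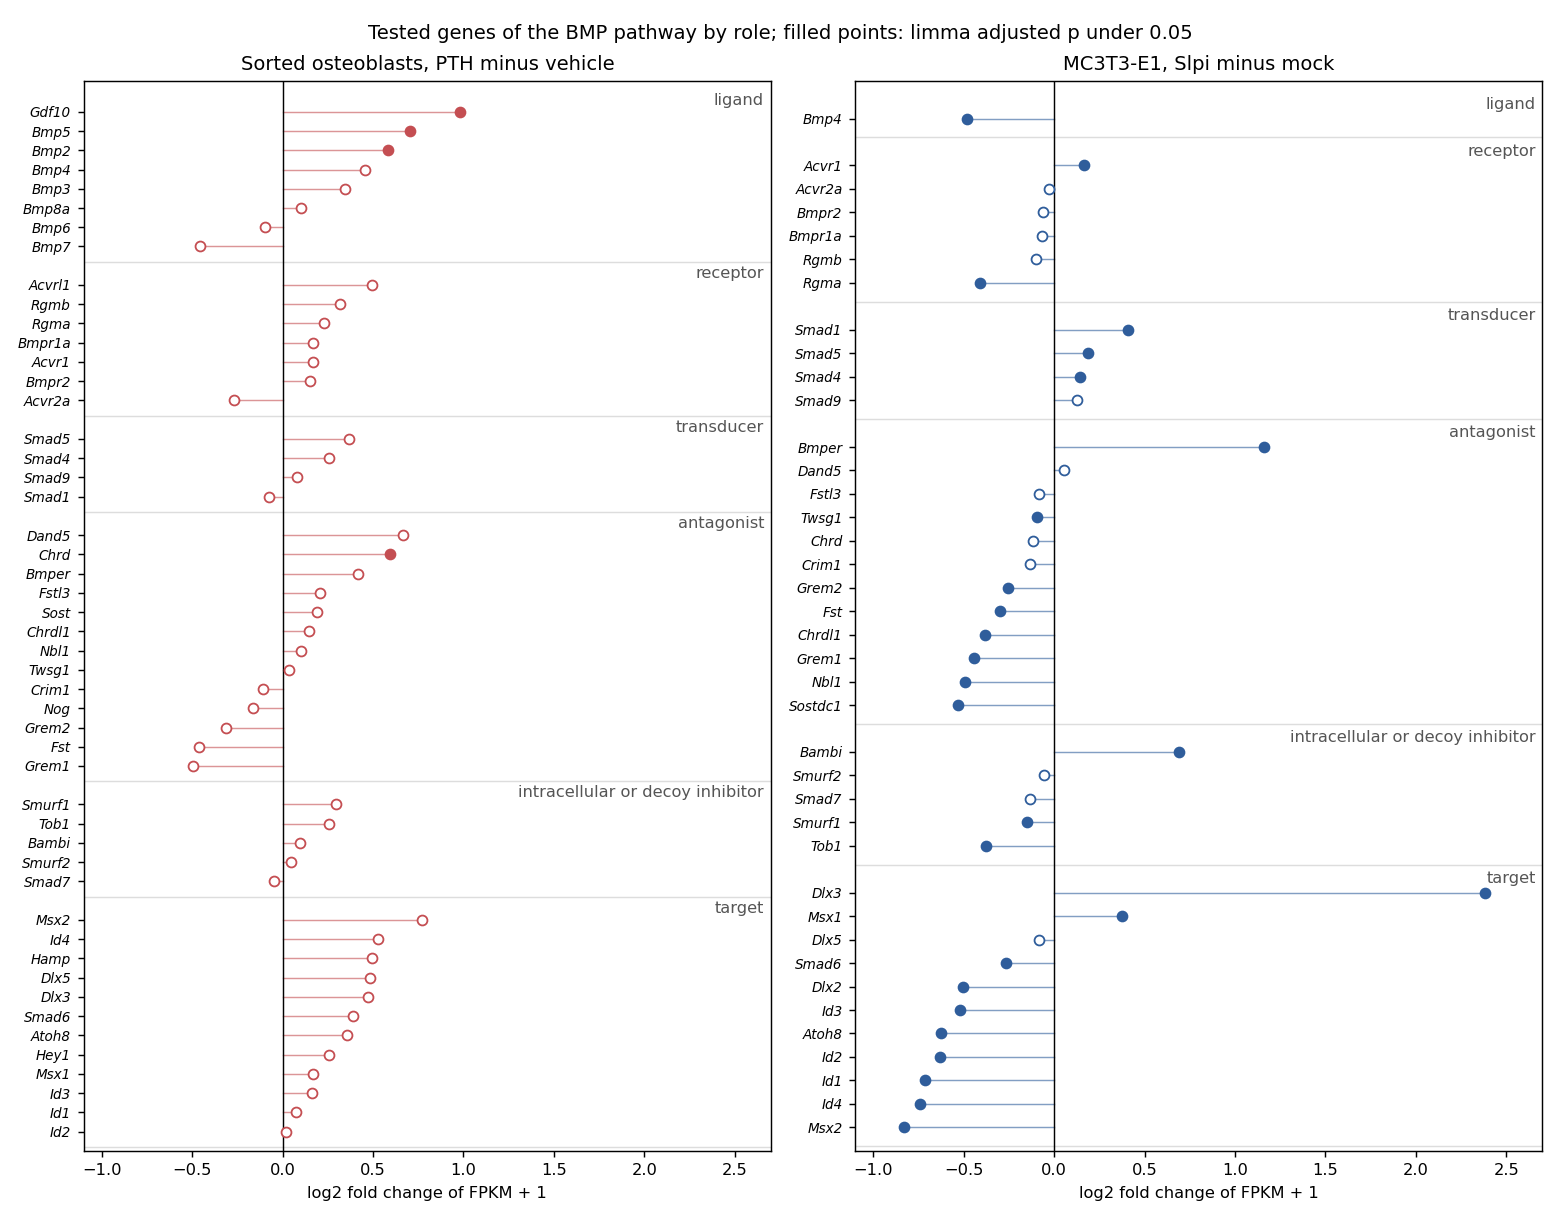
Log2 fold change of FPKM + 1 (x axis) of each tested gene of the BMP pathway (y axis), sorted by role, for PTH minus vehicle on the left (49 genes) and *Slpi* minus mock on the right (39 genes). Filled points passed the limma adjusted *p* of 0.05: 4 genes, all higher, on the left, and 19 lower and 8 higher on the right. Of all tested genes, 6.38% were higher and 8.85% lower with PTH, and 31.9% were higher and 28.9% lower with *Slpi*. On the right, *Dlx3* and *Bmper* were tested only through their *Slpi* values.

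Osteoblast markers also changed in MC3T3-E1 cells, most of them upward. Of the 8 markers 5 were higher with *Slpi* and 1 lower, where 31.9% of all tested genes were higher and 28.9% lower. *Ibsp*, the gene of bone sialoprotein, was at 37.9 to 42.5 FPKM in mock and at 364 to 409 with *Slpi*, *Alpl*, the gene of alkaline phosphatase, at 50.4 to 54.6 and 168 to 180, and *Sp7*, the gene of osterix, at 29.3 to 30.9 and 84.3 to 88.3. *Spp1*, the gene of osteopontin, was lower, at 737 to 758 and 563 to 579. Markers of pericytes and smooth muscle summed to 835 to 861 FPKM in mock and 492 to 538 with *Slpi*, with 2 of 3 tested lower and 1 higher. Of 3 tested chondrocyte markers 2 were higher and *Sox9* was lower, and of 3 tested marrow stromal and adipocyte markers 1 was higher and 2 were lower. Markers of T and NK cells summed to at most 0.0390 FPKM and all 4 mast cell markers were listed at 0. The part of these marker shifts in the fall of the BMP targets was not tested.

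The genes whose pattern over the 6 libraries was nearest to that of each tested member were found by the root mean square difference of the centred log2(FPKM + 1) values. In the *Slpi* experiment these were *Pld3* (difference 0.0107), *Pdgfra* (0.0233) and *Nbl1* (0.0258) for *Bmp4*, *Gas1* (0.0508), *Id4* (0.0586) and *Tle6* (0.0596) for *Id1*, and *Mr1* (0.0199), *Boc* (0.0226) and *Bmp4* (0.0307) for *Id3*. *Hdgfrp3* (0.0423) was nearest to *Grem1*, *Gdpd2* (0.0265) to *Smad6* and *Sec62* (0.0136) to *Bmpr1a*. In the PTH experiment *Cd109* (0.0362), *Tmem59* (0.0370) and *Wsb2* (0.0405) were nearest to *Bmp2*, and *Bax* (0.0449) to *Bmp4*. *Grem1*, the most scattered of the 10 there, had no gene nearer than *Gyk* (0.119).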

How the data were processed

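RNA-Seq values were taken from 12 libraries, 3 each of vehicle, PTH, mock and *Slpi*. The authors deposited FPKM per gene, calculated with Cuffnorm (Cufflinks 2.2.1). Single-end reads of 75 bases had been mapped to mm10. SAMtools 0.1.19, Bowtie2 2.2.3 and TopHat2 2.0.13 were the tools named. The annotation and the scaling option of Cuffnorm are not given in the sources used here. The labels and the methods differ on the library kit of the MC3T3-E1 cells. According to the methods, replicates of sorted osteoblasts came from different mice.

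FPKM are neither counts nor TPM, so no count model was used. Each experiment was fitted alone on log2(FPKM + 1), using limma 3.58.1 (R 4.3.3) with a mean-variance trend in eBayes. The scale understates changes of low genes. Genes that reached an FPKM of 1 in 1 or more of the 6 libraries were tested, and *p* values were adjusted by Benjamini-Hochberg over all of them, with a threshold of 0.05. The fit was tested on simulated data. Positions are from GENCODE M21, and promoters from RefSeq. Tables and figures were made in Python 3.11.15 with pandas 2.3.3 and matplotlib 3.10.9.

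The 10 genes, the 55 further pathway genes and the marker lists were chosen with earlier results of these data known. Further pathway genes were named when they passed the threshold, at most 12 by smallest *p*. *Msx1*, *Smad4*, *Smad5*, *Acvr1*, *Rgma*, *Bmp7*, *Bmp8a* and *Hamp* fall outside this rule and were named after their values were seen. The main fit did not pair libraries by replicate number. In sorted osteoblasts the correlations of deviations were 0.0294 to 0.102 for equal and -0.116 to 0.0688 for unequal numbers. In MC3T3-E1 cells they were -0.0523 to 0.0385 and -0.0988 to 0.105.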

Additional observations from a re-analysis of the deposited data

How the results depend on the processing

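Direction held for all 5 genes called in MC3T3-E1 cells and for *Bmp2* in sorted osteoblasts, under every alternative run. With *Slpi*, 82 of 84 alternative values of single members kept the outcome of the main fit, called or not called. These include the values of *Bmpr1a*, which was called in no fit. *Smad6* lost its call in an unmoderated linear model (adjusted *p* = 0.0777) and without mock replicate 1. Leaving out 1 library left 4 to 5 of the members and 19 to 21 of the further pathway genes called. In the main fit 28.9% of all tested genes were lower and 31.9% higher.

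The PTH comparison depended more on the processing. In the unmoderated model none of the 10 members, none of the further pathway genes (0) and 1 of all genes was called, against 1, 3 and 1981, although 3823 genes had an unadjusted *p* under 0.05. Leaving out 1 library gave 0 to 1 members, 0 to 3 further pathway genes and 0 to 1569 of all genes, with 0 of them without vehicle replicate 2 (3053 at an unadjusted *p* under 0.05), 1 without vehicle replicate 1 and 577 without PTH replicate 1. With no filter on low values 1310 genes were called. PTH replicate 3 alone was compared with vehicle after the data were seen, as an arm of 1 library with no spread of its own. It gave log2 fold changes of 0.61 for *Bmp2* and 0.77 for *Bmp3*. *Id3*, not called, had log2 fold changes of -0.16 with quantile normalization and -0.05 without PTH replicate 3. The cause of these shifts was not tested.

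Libraries were not paired by replicate number in the main fit. With a replicate block 1 and 5 members and 3 and 22 further pathway genes were called with PTH and *Slpi*, and 2262 and 7172 of all genes. Of the genes at about 1 FPKM in sorted osteoblasts, *Grem1* had a wide interval (SE 0.443). The SE of *Nog* (0.188) and of *Bmp6* (0.207) was near that of *Id3* (0.189), on a scale that understates changes of low genes.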
